A study of Mus musculus with 6 samples.

Results

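The transcripts described here are those of 43 genes for DNA replication and the S phase of the cell cycle, measured in BV2 cells, an immortalized mouse microglial line. The genes were chosen by name, and each was found on the array through the RefSeq transcript to which its probe is assigned. The brightest probe stood for a gene with more than 1 probe. All 43 were well above background on all 6 arrays, so all were tested, among 29759 genes or unnamed transcripts in all. The cells had received recombinant murine IL-4 at 10 ng/ml for 24 hr (3 samples) or PBS for 24 hr (3 samples), on plates coated with poly-L-lysine. The study is concerned with the M2, or alternative, polarization of microglia, and IL-4 was compared with PBS for changes in mRNA. Whether the 3 samples came from separate cultures is not in the labels. The p-values therefore reflect only sample-to-sample spread, possibly technical.

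DNA replication begins when the origin recognition complex, Cdc6 and Cdt1 load the ring of Mcm2 to Mcm7 onto origins in G1, a step that geminin blocks once S phase has begun. Cdc45 and the GINS complex then turn that ring into the active helicase, primase lays down RNA primers, and the polymerases extend them while held to the template by the PCNA clamp. Many of these genes are transcribed at the transition from G1 to S phase under E2F factors, and their mRNAs mark cells that are in the cycle, as BV2 cells are in culture. Macrophages can also proliferate in response to IL-4 in tissues of mice, which is background and was not measured here.

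Each sample had a single-colour array of its own, on which 87.9% to 98.0% of 39429 probes exceeded background clearly. The file headers record the same scan for the 3 IL-4 arrays and PBS replicate 1, at positions 1 to 4, and another scan for PBS replicates 2 and 3. Arrays of 1 scan were taken as 1 slide, so only slide 1 holds both groups, with a lone PBS array. The 10 microglia and macrophage markers were well above background on every array. So were the 14 tested markers of astrocytes, neurons and oligodendrocytes, with group means between -4.30 and 3.66 on the log2 scale used below, and none was at 0. None of those 14 passed the test (limma). Of them, 4 were higher and 1 lower at an unadjusted p under 0.05, beside 16.6% and 17.5% of all genes. Aif1 and Tyrobp passed, both lower, among the 10 microglial markers, beside 2.54% of all genes lower by the same test. At an unadjusted p under 0.05 (limma), 0 of the 10 were higher and 6 lower, beside 16.6% and 17.5% of all genes. Their median log2 fold change was -0.42. With slide as a block neither Aif1 nor Tyrobp was called (adjusted p = 0.23 and 0.22), and the median of those 10 within slide 1 was -0.23. The part of these markers in the results below was not tested.

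Of the 43 replication genes, 2 fell with IL-4, Tk1 and Prim1, and none rose. Over all genes tested, 2.54% were lower and 0.803% higher (limma, adjusted p under 0.05), 3.34% in all. At an unadjusted p under 0.05, 6 of the 43 were higher and 5 lower, where 16.6% and 17.5% of all genes were. The median log2 fold change of the 43 was 0.02, between -0.78 for Tk1 and 1.49 for Tyms, beside -0.05 for all genes. The IL-4 and PBS arrays did not overlap for 8 replication genes that were higher (18.6%) and 4 that were lower (9.30%), beside 18.7% and 19.8% of all genes. With another background correction (normexp, scaled to the 75th percentile), 4 of the 43 were higher and 3 lower, and 2017 and 2016 of all genes, beside 239 and 756 in the main fit.

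**Figure D1:**
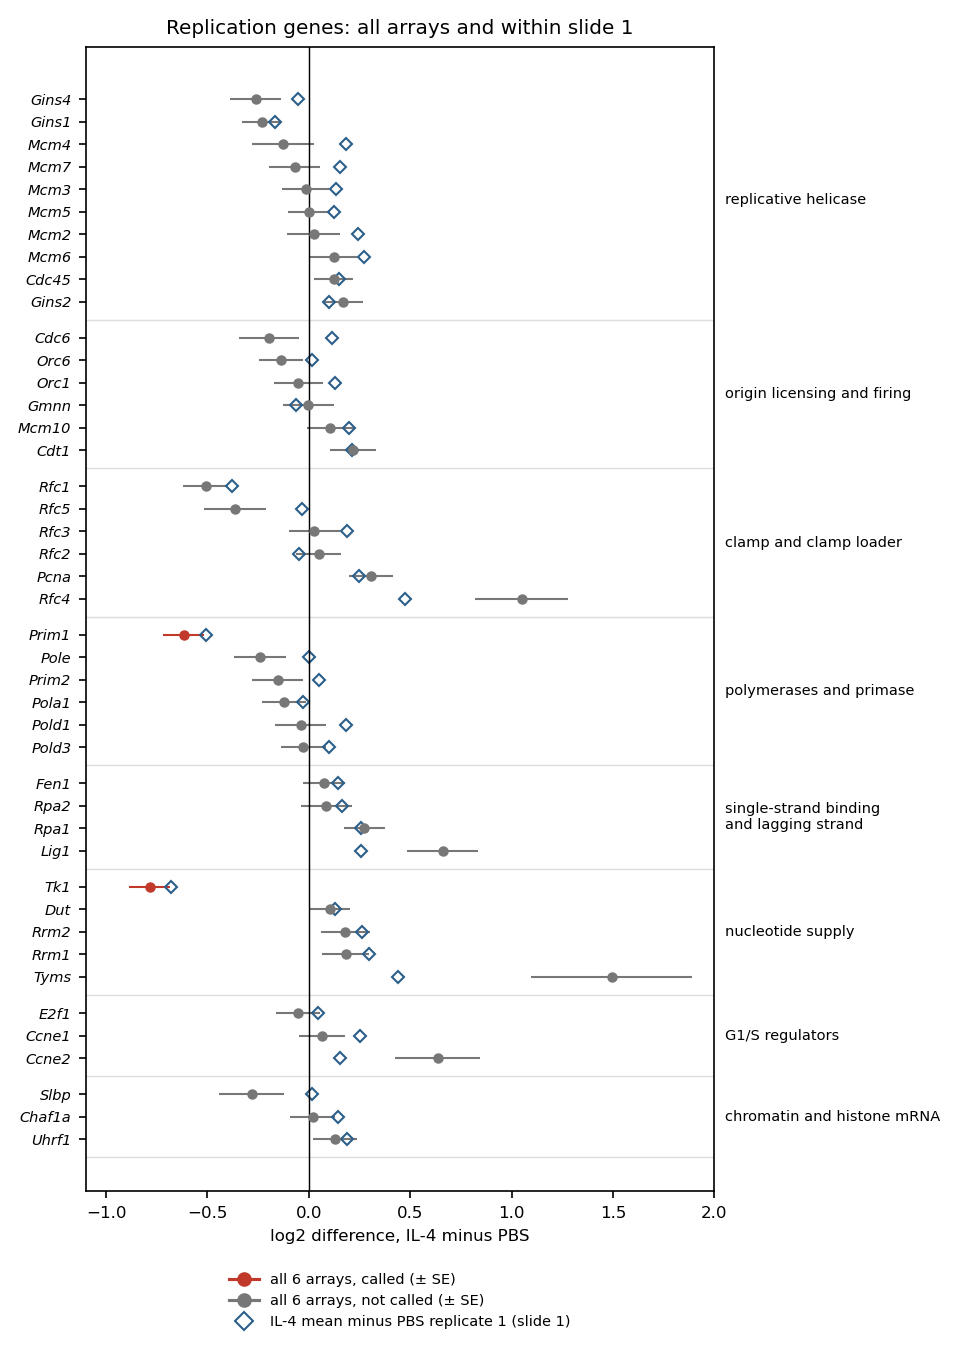
Log2 difference of IL-4 minus PBS for each of the 43 genes, grouped by role. Circles with SE bars show the fit over all 6 arrays (red where called) and open diamonds the mean of the 3 IL-4 arrays minus PBS replicate 1 on slide 1. Tk1 and Prim1 lie to the left on both measures, whereas the circles of Tyms, Rfc4, Lig1 and Ccne2 lie much farther right than their diamonds.

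Tk1 encodes the cytosolic thymidine kinase, which salvages thymidine for DNA synthesis and accumulates in S phase. Its log2 signal, with 0 set at the 75th percentile of each array, was -0.62, -0.57 and -0.53 in the IL-4 samples, against 0.11, 0.23 and 0.30 in the PBS samples. Every IL-4 array lay below every PBS array, and the gap between the groups was wider than the spread within either. The signal was 1.72-fold lower with IL-4, a log2 fold change of -0.78 ± 0.10 (SE, n = 3 each, limma adjusted p = 0.025).

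Prim1 encodes the catalytic subunit of primase, which makes the RNA primers of every new DNA strand. Its log2 signal was 0.15, 0.20 and 0.18 in the IL-4 samples, against 0.68, 0.88 and 0.81 in the PBS samples. The 3 IL-4 values lay close together and did not overlap the PBS values. Prim1 was 1.53-fold lower with IL-4, a log2 fold change of -0.62 ± 0.10 (SE, n = 3 each, limma adjusted p = 0.033).

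Against PBS replicate 1 on the same slide, the IL-4 mean of Tk1 differed by -0.68 and that of Prim1 by -0.50 on the log2 scale, so each difference was present within the slide. Slide 2 holds no IL-4 array, so the log2 fold changes with slide as a block are these same differences from PBS replicate 1. With slide as a block neither was called (adjusted p = 0.12 and 0.20), and no replication gene was, in a fit that called 0.0638% of all genes. At an unadjusted p under 0.05 that fit had 3 replication genes higher and 3 lower, beside 4.41% and 5.82% of all genes. Both calls were also lost without IL-4 replicate 1, 2 or 3 or without PBS replicate 2 or 3 (adjusted p = 0.11 to 0.16), where the log2 fold change stayed between -0.80 and -0.57. They were kept without PBS replicate 1 (adjusted p = 8.3e-04 for Tk1 and 0.0016 for Prim1), a setting in which group and slide cannot be told apart and 12663 genes were called.

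The sequences before the starts of Tk1 and Prim1 are shown because these were the called replication genes. Each run holds the 250 bases upstream of the annotated start, 5′ to 3′ along the gene, from the RefSeq promoters of build GRCm38.p6. Capitals mark matches, on either strand, to E2F-type letters, which are TTCCCGC and also TTGGCGC as well as TTCGCGC and finally TTGCCGC, and to CCAAT, the letters bound by NF-Y. Tk1 lies on the minus strand at chr11:117826015-117826264 and Prim1 on the plus strand at chr10:128014965-128015214.
Tk1: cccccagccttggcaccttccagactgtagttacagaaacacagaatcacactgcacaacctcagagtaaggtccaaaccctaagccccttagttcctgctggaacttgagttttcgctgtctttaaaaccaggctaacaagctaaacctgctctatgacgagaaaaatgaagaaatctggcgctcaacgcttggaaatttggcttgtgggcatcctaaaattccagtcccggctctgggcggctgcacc
Prim1: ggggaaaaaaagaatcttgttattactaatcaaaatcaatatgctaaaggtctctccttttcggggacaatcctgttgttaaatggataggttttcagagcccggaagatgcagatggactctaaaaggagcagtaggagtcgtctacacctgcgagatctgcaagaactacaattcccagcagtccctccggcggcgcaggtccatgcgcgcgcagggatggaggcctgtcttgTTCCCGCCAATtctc
The Prim1 stretch holds 1 E2F-type match, at bases 15 to 9 before the start, and 1 CCAAT match that shares its first base with the end of the E2F-type match. The Tk1 stretch holds neither set of letters, which says only that they are not in this window. Promoters matched by symbol for 34 of the 43 genes, and 14 of them (41.2%) held an E2F-type match in the 250 bases, beside 9.01% of 27025 genes in the table. CCAAT was present for 21 (61.8%), beside 37.5% of all genes, and TTTGAA, letters of the cell cycle homology region, for 3 (8.82%), beside 18.3%. The letters searched were chosen after the promoters of Tk1 and Prim1 had been read, and a match is a description, not a site.

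The other genes of nucleotide supply did not pass. Tyms encodes thymidylate synthase, which makes thymidylate from deoxyuridylate, the route parallel to that of Tk1. Its log2 signal was 2.39, 2.75 and 2.76 in the IL-4 samples, against 2.20, 0.72 and 0.50 in the PBS samples. PBS replicate 1 lay close to the IL-4 arrays of its slide and far above the PBS arrays of slide 2. The log2 fold change was 1.49 ± 0.40 over all arrays (limma adjusted p = 0.062) and 0.44 within slide 1, and PBS replicate 1 stood 1.58 above the mean of the other PBS arrays, the widest such gap among the 43 genes. Rrm1 and Rrm2, the large and small subunits of ribonucleotide reductase, differed by 0.18 ± 0.12 and 0.18 ± 0.12 (adjusted p = 0.28 and 0.31), and by 0.30 and 0.26 within slide 1. Dut, the enzyme that keeps uracil out of DNA, differed by 0.10 ± 0.10 (adjusted p = 0.47).

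**Figure D2:**
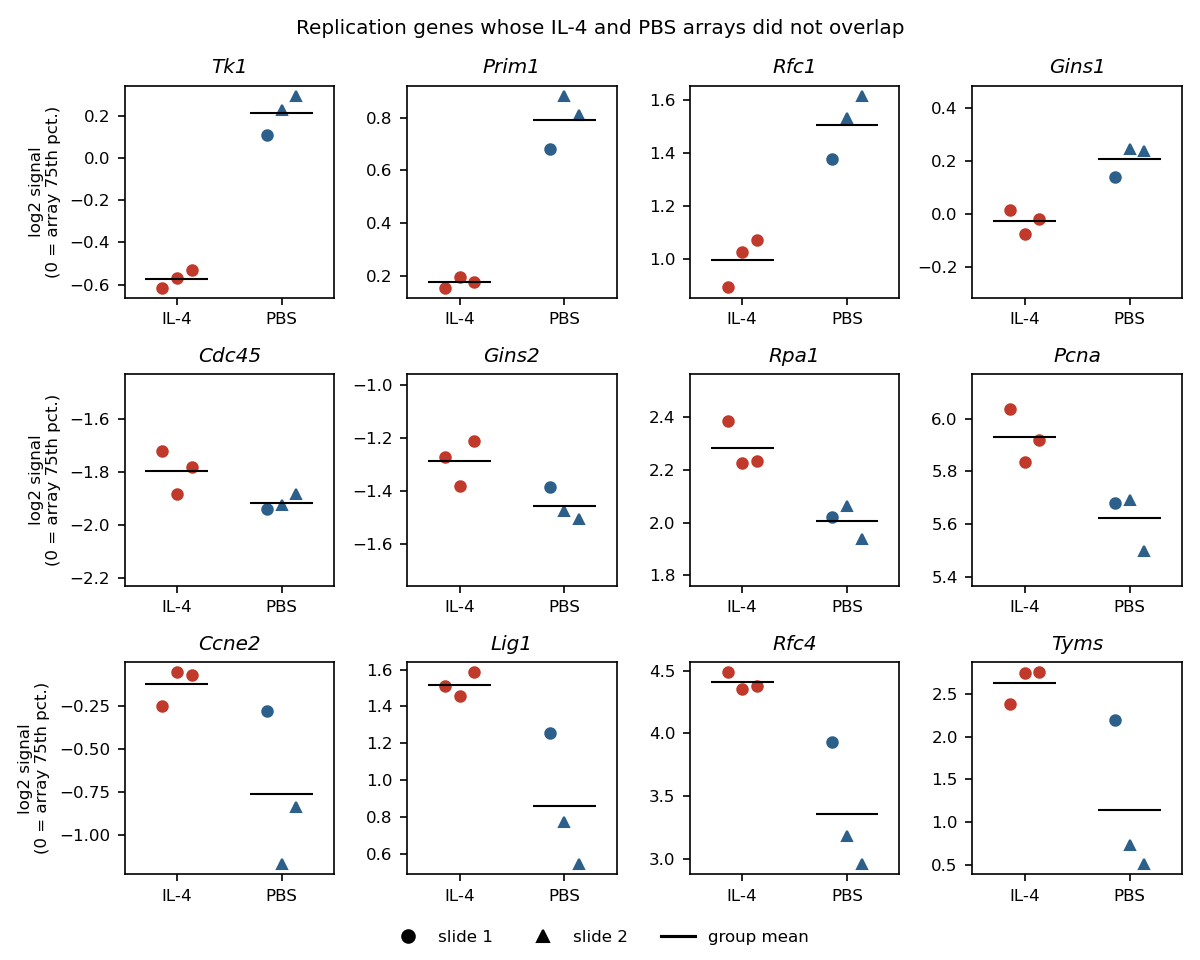
Log2 signal, with 0 at the 75th percentile of each array, for the 12 replication genes whose groups did not overlap, with IL-4 left and PBS right and panels in order of their log2 fold change. Circles are arrays of slide 1, triangles arrays of slide 2 and lines group means. For Tyms, Rfc4, Lig1 and Ccne2 the PBS array of slide 1 lies between the IL-4 arrays and both slide 2 arrays.

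Among the clamp and clamp loader genes, none of 6 passed. Of these, 2 were higher and 2 lower at an unadjusted p under 0.05 (limma), beside 16.6% and 17.5% of all genes. Pcna encodes the sliding clamp. Its log2 signal was 6.04, 5.83 and 5.92 in the IL-4 samples, against 5.68, 5.69 and 5.50 in the PBS samples. The IL-4 arrays were all higher, with a log2 fold change of 0.31 ± 0.11 (95% interval 0.05 to 0.56, limma adjusted p = 0.098) and a difference of 0.25 within slide 1. The size depended on the normalization, at 0.08 with quantile normalization, 0.11 with normexp and quantile and 0.09 when the authors' deposited table was tested.

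None of the 5 subunits of replication factor C, the complex that opens the clamp and loads it, passed. The signal of Rfc1, the largest subunit, was 0.89, 1.03 and 1.07 in the IL-4 samples, against 1.37, 1.53 and 1.61 in the PBS samples. These groups did not overlap, and the log2 fold change of -0.51 ± 0.11 missed the threshold narrowly (adjusted p = 0.0502), with -0.38 within slide 1. Rfc1 was called with quantile normalization (adjusted p = 0.039), with scaling to the median (0.041), and when the same test was run on the authors' deposited table (0.045). It was not called with no filter on dim probes (0.084), with slide as a block (0.35) or without any 1 array other than PBS replicate 1 (0.15 to 0.20).

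The brightest probe of Rfc4 gave 4.49, 4.36 and 4.37 in the IL-4 samples, against 3.93, 3.18 and 2.96 in the PBS samples. Its IL-4 values were tightly grouped and its PBS values were not, and PBS replicate 1 stood 0.86 above the other PBS arrays. The log2 fold change was 1.05 ± 0.23 (adjusted p = 0.051), with 0.47 within slide 1. A second, dimmer probe for the same Rfc4 transcript gave -0.15 over all arrays and 0.09 within slide 1, so the probes of this gene disagreed, and their mean gave 0.45. The brightest probe of Rfc4 was called with quantile normalization and with scaling to the median (adjusted p = 0.046 in both), and not with slide as a block (0.30). Rfc5 had a log2 fold change of -0.36 ± 0.15 (adjusted p = 0.14) and -0.03 within slide 1. Rfc2 and Rfc3 differed by 0.05 ± 0.11 and 0.03 ± 0.12 (adjusted p = 0.77 and 0.89).

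All 6 polymerase and primase genes had a log2 fold change below 0, as had 56.5% of all genes. Of the 6, 1 was called, Prim1, beside 2.54% of all genes called lower. At an unadjusted p under 0.05 (limma), 0 were higher and 1 lower, beside 16.6% and 17.5% of all genes. Within slide 1, 2 of the 6 lay below PBS replicate 1 and 4 above it, beside 51.3% of all genes above. The median difference of the 6 was 0.03. In all 6, PBS replicate 1 lay below the mean of the other PBS arrays, as in 17772 of all 29759 genes. Prim2, the regulatory partner of Prim1 in primase, differed by -0.15 ± 0.13 (adjusted p = 0.40) and lay 0.05 above PBS replicate 1 within slide 1. The IL-4 values of Prim2 were 2.52, 2.30 and 2.44, against 2.37, 2.69 and 2.66 in the PBS samples, so the groups overlapped. The interval of the Prim2 difference ran from -0.44 to 0.14. Pola1, the catalytic subunit of the polymerase that extends the primers, differed by -0.12 ± 0.11.

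Pold1 and Pold3, subunits of the lagging-strand polymerase delta, differed by -0.04 ± 0.13 and -0.03 ± 0.11. Within slide 1 they differed by 0.18 and 0.10. Pole, the catalytic subunit of the leading-strand polymerase epsilon, differed by -0.24 ± 0.13 (adjusted p = 0.22). Its second, dimmer probe gave -0.63 over all arrays and -0.54 within slide 1, against 9.0e-04 within slide 1 for the brightest probe. The size of the Pole difference therefore depended on the probe.

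The 4 genes for binding of single-stranded DNA and completion of the lagging strand all had a log2 fold change above 0. So had 12939 of all 29759 genes, and none of the 4 passed. Of the 4, 2 were higher at an unadjusted p under 0.05 (limma), beside 16.6% of all genes. Lig1, the ligase that joins Okazaki fragments, gave 1.51, 1.46 and 1.59 in the IL-4 samples, against 1.26, 0.77 and 0.54 in the PBS samples. As for Tyms and Rfc4, PBS replicate 1 was the highest PBS array, by 0.60 over the mean of the others. The log2 fold change of Lig1 was 0.66 ± 0.18 (adjusted p = 0.062) and its difference within slide 1 was 0.26. Rpa1, the large subunit of the single-strand binding protein RPA, gave 2.38, 2.23 and 2.23 in the IL-4 samples, against 2.02, 2.06 and 1.94 in the PBS samples. Its PBS arrays agreed across slides, and the differences over all arrays and within slide 1 were 0.27 ± 0.10 and 0.26 (adjusted p = 0.11). Rpa2 and Fen1, the flap endonuclease that trims Okazaki fragments, differed by 0.09 ± 0.13 and 0.08 ± 0.10.

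None of the 10 genes of the replicative helicase passed. Of these, 0 were higher and 1 lower at an unadjusted p under 0.05 (limma), beside 16.6% and 17.5% of all genes. Mcm2 to Mcm7, the 6 subunits of the ring, differed by -0.13 to 0.12 over all arrays, with a median of -0.01. Mcm2 gave 1.30, 1.08 and 1.07 in the IL-4 samples, against 0.91, 1.27 and 1.19 in the PBS samples. The IL-4 arrays of Mcm2 lay above the PBS array of slide 1 and overlapped those of slide 2. All 6 had every IL-4 array above PBS replicate 1, by means of 0.12 (Mcm5) to 0.27 (Mcm6), beside 30.5% of all genes. In all 6, PBS replicate 1 lay below the mean of the other PBS arrays (median difference -0.27), as in 17772 of all 29759 genes. Both counts share PBS replicate 1. The widest interval over all arrays was that of Mcm4, from -0.48 to 0.22.

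Of the factors that turn the loaded ring into the active helicase, Cdc45 gave -1.72, -1.88 and -1.78 in the IL-4 samples, against -1.94, -1.93 and -1.89 in the PBS samples. Gins2, a GINS subunit, gave -1.27, -1.38 and -1.21 in the IL-4 samples, against -1.39, -1.48 and -1.51 in the PBS samples. The groups of both genes were separate by a narrow margin (Cdc45 at 0.08 with normexp and quantile), at 0.12 ± 0.10 for Cdc45 and 0.17 ± 0.10 for Gins2 as log2 fold changes (adjusted p = 0.39 and 0.26). Gins1, another GINS subunit, gave 0.02, -0.08 and -0.02 in the IL-4 samples, against 0.14, 0.24 and 0.24 in the PBS samples. The Gins1 groups did not overlap, and the log2 fold change was -0.23 ± 0.10 (adjusted p = 0.13), with -0.17 within slide 1. Gins4 differed by -0.26 ± 0.13 (adjusted p = 0.18) and by -0.05 within slide 1.

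Of the 6 genes of origin licensing and firing, none passed and none had groups that did not overlap. At an unadjusted p under 0.05 (limma), 0 were higher and 0 lower, beside 16.6% and 17.5% of all genes. Cdt1, which brings the ring to origins, differed by 0.22 ± 0.11 (adjusted p = 0.21) and geminin, encoded by Gmnn, the inhibitor of Cdt1, by -0.0020 ± 0.13 (95% interval -0.29 to 0.29). Cdc6 gave -0.19, -0.27 and -0.11 in the IL-4 samples, against -0.30, 0.14 and 0.18 in the PBS samples. PBS replicate 1 was here the lowest of all arrays, so the difference was -0.20 ± 0.15 over all arrays and 0.11 within slide 1. Orc1 and Orc6, subunits of the origin recognition complex, differed by -0.05 ± 0.12 and -0.14 ± 0.11, and Mcm10, which takes part in firing, by 0.11 ± 0.11.

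Among the regulators of the transition into S phase, E2f1, a transcription factor of the replication genes, differed by -0.06 ± 0.11 (95% interval -0.31 to 0.20). The cyclin E genes Ccne1 and Ccne2, activators of Cdk2, differed by 0.07 ± 0.11 and 0.63 ± 0.21 (adjusted p = 0.70 and 0.085). Ccne2 gave -0.25, -0.06 and -0.07 in the IL-4 samples, against -0.28, -1.17 and -0.84 in the PBS samples. PBS replicate 1 was again near the IL-4 arrays, and the difference of Ccne2 within slide 1 was 0.15. For Ccne1 it was 0.25, since PBS replicate 1 was there the lowest PBS array. Uhrf1, which guides maintenance of DNA methylation, and Chaf1a, a subunit of the histone chaperone CAF-1, differed by 0.13 ± 0.11 and 0.02 ± 0.11. Slbp, which binds the stem-loop of histone mRNAs, differed by -0.28 ± 0.16 (adjusted p = 0.24) and by 0.02 within slide 1.

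Within slide 1, the IL-4 mean lay above PBS replicate 1 for 34 of the 43 genes (79.1%), beside 51.3% of all genes, and the median difference was 0.14, beside 0.0056 for all genes. All 3 IL-4 arrays were above that PBS array for 29 replication genes (67.4%, beside 30.5% of all genes) and below it for 4 (9.30%, beside 25.5%), Tk1, Prim1, Rfc1 and Gins1. These counts and the median rest on a lone PBS array, with no spread of its own, and were not tested. A fit on slide 1 that took this array to vary like the IL-4 arrays gave adjusted p = 0.25 for Tk1 and 0.31 for Prim1 (limma). PBS replicate 1 was the lowest of the 3 PBS arrays for 32 of the 43 genes (74.4%, beside 50.6% of all genes) and the highest for 6 (14.0%, beside 31.9%). It stood below the mean of PBS replicates 2 and 3 by a median of -0.17, beside -0.08 for all genes. The comparisons share PBS replicate 1. Against the mean of PBS replicates 2 and 3, on the other slide, the median of the 43 was -0.05, beside -0.09 for all genes.

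Centred on each gene's mean over the 6 arrays, the median of the 43 genes was 0.09, -0.06 and -0.01 in IL-4 replicates 1, 2 and 3, against -0.12, 0.09 and 0.04 in PBS replicates 1, 2 and 3. The arrays of the groups were interleaved, with PBS replicate 1 lowest and IL-4 replicate 1 and PBS replicate 2 highest. IL-4 replicate 1 and PBS replicate 2 lay in the first position of their slides and had the lowest shares of probes well above background, 87.9% and 89.5%. The part of position in these medians was not tested. The SD over the 3 IL-4 arrays was smaller than that over the 3 PBS arrays for 32 of the 43 genes (74.4%), beside 68.4% of all genes, and the PBS arrays span both slides.

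**Figure D3:**
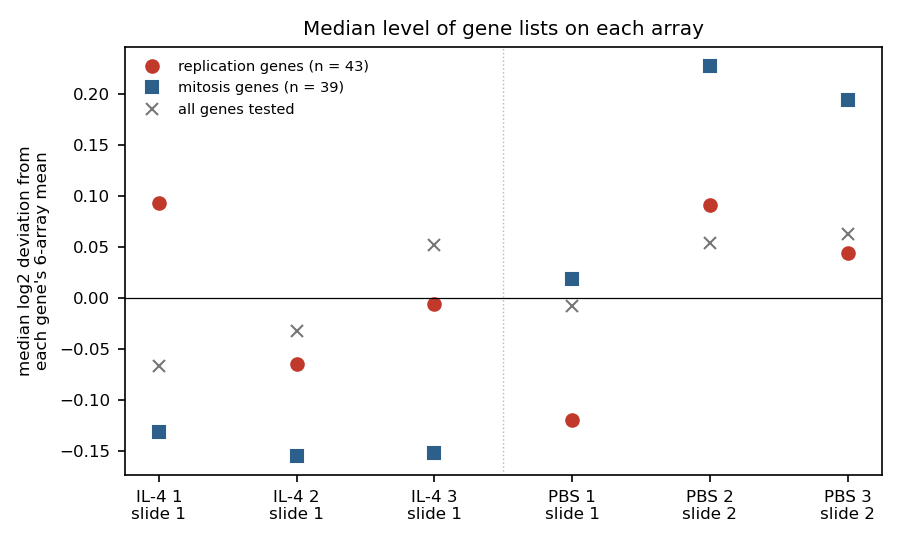
Median over a gene list of the log2 deviation from each gene's mean over the 6 arrays, with the IL-4 arrays left of the PBS arrays. The replication genes (circles) run from -0.12 in PBS replicate 1 to 0.09 in IL-4 replicate 1, and the mitosis genes (squares) are lower in all 3 IL-4 arrays, at -0.15 to -0.13, than in the PBS arrays, at 0.02 to 0.23.

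The other genes of the pathway came from lists of factors by function, which were chosen with earlier results of these data known. The 54 other replication factors had a median log2 fold change of -0.13 and a median difference within slide 1 of -0.03. At an unadjusted p under 0.05 (limma), 2 were higher and 10 lower, beside 16.6% and 17.5% of all genes. Of the 54, 1 fell and none rose, beside 2.54% and 0.803% of all genes. The gene that fell was Rnaseh2c, a subunit of the ribonuclease that removes RNA from DNA, at -0.67 ± 0.14 (adjusted p = 0.049). Its signal was 0.54, 0.61 and 0.69 in the IL-4 samples, against 1.00, 1.35 and 1.51 in the PBS samples.

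The 27 other G1/S genes had a median of -0.14, and of -0.05 within slide 1. At an unadjusted p under 0.05 (limma), 1 was higher and 11 lower, beside 16.6% and 17.5% of all genes. Of the 27, 4 fell and none rose, beside 2.54% and 0.803% of all genes. Tfdp2, a dimerization partner of E2F factors, gave -1.68, -1.62 and -1.71 in the IL-4 samples, against -0.94, -0.91 and -0.91 in the PBS samples. Both groups of Tfdp2 were tight and lay far apart, with a log2 fold change of -0.75 ± 0.09 (adjusted p = 0.025) and -0.72 within slide 1. Cdkn1b, an inhibitor of cyclin-dependent kinases that holds cells in G1, had a log2 fold change of -0.62 ± 0.12 (adjusted p = 0.040). Rbl2, a pocket protein of quiescent cells, and E2f2, an activating E2F factor, fell as well, at -0.56 ± 0.11 and -0.46 ± 0.10 (adjusted p = 0.045 and 0.0497). The differences within slide 1 were -0.49 for Cdkn1b, -0.58 for Rbl2 and -0.35 for E2f2.

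The 39 mitosis genes had a median of -0.30, and of -0.13 within slide 1. At an unadjusted p under 0.05 (limma), 2 were higher and 20 lower, beside 16.6% and 17.5% of all genes. Of the 39, 8 fell and none rose, beside 2.54% and 0.803% of all genes. Those with the largest differences were Mki67, a marker of cycling cells (-0.79 ± 0.14), the mitotic kinase Plk1 (-0.76 ± 0.14), cyclin A2, encoded by Ccna2 (-0.75 ± 0.16), the kinetochore motor Cenpe (-0.69 ± 0.12), the spindle protein Nusap1 (-0.64 ± 0.10) and the motor Kif23 of cytokinesis (-0.62 ± 0.13), with adjusted p-values of 0.033 to 0.049. Within slide 1 these 6 differed by -0.64 to -0.36, and with slide as a block no gene of the 3 lists was called. At an unadjusted p under 0.05 that fit had 1 higher and 10 lower mitosis genes, 2 higher and 6 lower G1/S genes, and 1 higher and 2 lower replication factors, beside 4.41% of all genes higher and 5.82% lower. The replication genes, measured in the same samples, had medians of 0.02 and 0.14 in the same order. The difference between the lists was not tested.

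**Figure D4:**
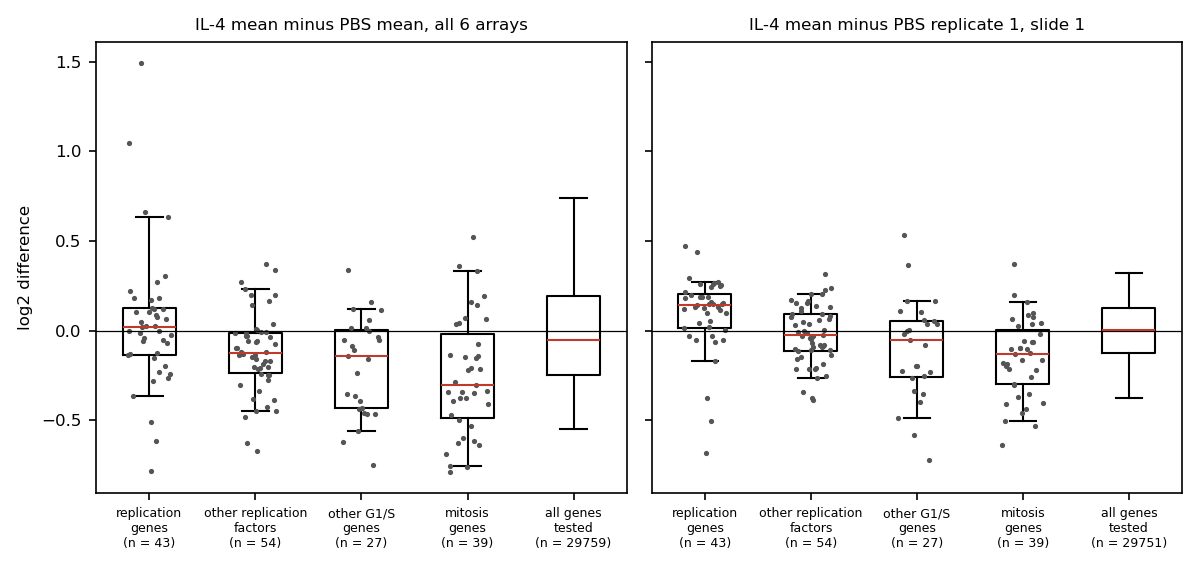
Log2 differences of IL-4 minus PBS over all 6 arrays (left) and of the IL-4 mean minus PBS replicate 1 on slide 1 (right), with 1 point per gene. Boxes show quartiles, red lines medians and whiskers the 5th and 95th percentiles. The median of the replication genes is 0.02 on the left and 0.14 on the right, and that of the mitosis genes is -0.30 and -0.13.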

How the data were processed

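Spot brightness was deposited as linear intensity per spot, made with Agilent Feature Extraction 11.0.1.1 on single-colour (Cy3) arrays, per the file headers. Its processed signal has had background and spatial trend removed per array, with no scaling across arrays, per the file headers. A second table deposited by the authors holds log2 values, judged by their range, whose 6 columns have equal quartiles. It served as an alternative, and how it was normalized is not stated. Groups and replicate numbers came from the labels. The control is untreated in the design text and PBS in the labels, as used here, and a mention of human blood in the labels goes against every other label and was not used.

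Control spots and outlier-flagged spots (87 to 394 per array) were left out, none was saturated, and repeat spots were averaged. Each array's 75th percentile was subtracted from its log2 processed signals. A probe was tested if it was well above background on all arrays of either group. Accessions were matched without version to RefSeq genes of GRCm38.p6, which named 69.1% of probes. The test was limma 3.58.1 (lmFit, eBayes) under R 4.3.3, over all 6 arrays with no block, as IL-4 minus PBS, with Benjamini-Hochberg adjustment over all 29759 features. A gene was called at an adjusted p under 0.05. SE and intervals are those of the fit. The limma steps were also run on simulated arrays with known changes. Those arrays had no slide or position difference, so that run says nothing about either. No replication gene lacked a value on any array. Skp2, listed among other G1/S genes, had no matched probe, and Slc1a3, an astrocyte marker, did not pass the filter. Top2a stands in 2 lists.

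All 43 genes could be named. Values in every sample were given for called genes, for genes whose groups did not overlap and for the 3 largest differences in each direction, and for some others chosen after their values were seen. Of each other list, up to 6 called genes with the largest differences were named. The members and lists were chosen with earlier results of these data known. The alternatives were other normalizations and background corrections, filters, probes, slide and replicate blocks, and leaving out arrays. The files hold median spot signals, so normexp (offset 50) used gMedianSignal in place of a mean signal. Precision is limited by having 3 arrays a group.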

Additional observations from a re-analysis of the deposited data

How the results depend on the processing

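For the 12 replication genes whose groups did not overlap, a choice that largely fixes their direction when arrays are left out, 18 of 228 values over 19 alternatives lost a call, all of Tk1 or Prim1, and 27 gained one. Tyms and Lig1 gained it with normexp and the 75th percentile, among probes well above background on all arrays, with the replicate block and without PBS replicate 1, and Ccne2 with the first and last of these. The count of 2 called replication genes became 4 with quantile normalization, 4 with scaling to the array median, 4 with normexp and quantile, 7 with normexp and the 75th percentile and 6 among probes well above background on all arrays. It was 0 with no filter on dim probes (Tk1 at adjusted p = 0.057, Prim1 at 0.063), 0 with slide as a block, 0 on slide 1 only and 0 with both first-position arrays left out. Leaving out 1 array gave 0 to 14, with 14 (5 higher, 9 lower) without PBS replicate 1 and 0 without any other. The median of the 43 genes was 0.14 with slide as a block and 0.14 on slide 1 only. These are the same differences from PBS replicate 1, not 2 separate estimates. With 1 array left out the median was -0.05 to 0.06. The count of 13 other pathway genes became 7 with the percentile taken over probes clearly above background on every array, 24 with normexp and quantile, 24 with normexp and the 75th percentile, 20 among probes well above background on all arrays, 8 with the mean of a gene's probes, 0 with no filter, 0 with slide as a block, 0 on slide 1 only, 0 without first-position arrays and 0 to 56 with 1 array left out, 56 being without PBS replicate 1. Over all genes, 995 calls became 2600 with quantile normalization, 1669 with median scaling, 3076 with normexp and quantile, 4033 with normexp and the 75th percentile, 2284 with the authors' deposited table, 15 with no filter, 3403 among probes well above background on all arrays, 601 with the mean of probes, 19 with slide as a block, 1 on slide 1 only, 0 without first-position arrays and 0 to 12663 with 1 array left out. The causes were not tested. Same-numbered IL-4 and PBS samples had deviations that correlated at 0.08, -0.02 and 0.30 across genes. Samples numbered 1 and 3 correlated best with their own number, and those numbered 2 did not. The numbers were not taken as pairs in the main fit, and 3 arrays a group cannot settle whether they are. With the replicate block 6 replication genes were called (3 higher, 3 lower) and 3786 of all genes. The difference within slide 1 had a median of 0.10 to 0.19 under all alternatives that gave one. With 3 arrays a group and 1 PBS array on slide 1, small differences are below what these arrays resolve.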
